A study of Mus musculus with 6 samples.

Results

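The 10 genes described here encode the classical mouse MHC class I molecules and the machinery that loads them with peptide. They are the heavy chains H2-K1 and H2-D1, the light chain B2m, the peptide transporter subunits Tap1 and Tap2, the bridging protein Tapbp, the immunoproteasome subunits Psmb8, Psmb9 and Psmb10, and the class I transactivator Nlrc5. They were chosen by symbol, for their known function, but with earlier results of these data known. The choice was made from 24732 gene symbols with FPKM values (fragments scaled to transcript length and to sequencing depth), and all 10 were found. The cells were labelled as mouse female germline stem cells (FGSCs), a cultured line of strain C57BL/6 per the labels, at more than 20 passages and kept on inactivated STO fibroblast feeders. The study's methods derive the FGSCs from neonatal ovaries of Ddx4-Cre; mT/mG mice, in which Cre is driven by a germ cell promoter. A group of 3 samples labelled control was compared with 3 samples labelled shCTCF, in which a short hairpin RNA against Ctcf, the gene of a chromatin loop and boundary protein, was delivered with a lentivirus before puromycin selection. The sources used here do not say what the control cells carried, and do not say whether samples of a group came from separate cultures. The p-values therefore measure the spread between these samples, which may be technical. The comparison addresses how transcript levels differed after knockdown of CTCF in cells labelled FGSC.

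MHC class I molecules show peptides made inside the cell to CD8+ T cells. The immunoproteasome subunits replace the constitutive subunits Psmb5, Psmb6 and Psmb7 and alter which peptides are cut. Tap1 and Tap2 form the channel that carries peptides into the endoplasmic reticulum (ER), where Tapbp (tapasin) holds the empty heavy chain and B2m beside the channel until a peptide fits. Nlrc5 acts at class I promoters together with the RFX, CREB/ATF and NF-Y factors, and the whole system is known to be inducible by interferons.

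Total counts per sample lay between 1686052 and 7044272 fragments, with the lowest total in control replicate 2, and between 9639 and 9937 genes had at least 1 FPKM. The targeted gene Ctcf was at 58.2, 56.1 and 53.5 FPKM in control replicates 1, 2 and 3 and at 0.740, 0.550 and 0.629 FPKM in shCTCF replicates 1, 2 and 3. The knockdown was thus visible on FPKM in every labelled sample. Ctcf had 0 counts in all samples, so this rests on FPKM alone. Of 10 female germline markers, 0 reached a mean of 1 FPKM in the controls and 1, Ifitm3, did in the shCTCF group. Dppa3, Gfra1, Sycp3 and Figla were listed at 0 FPKM in all 6 samples, and Ddx4 was at 0 in the mean of the controls. The labelled cell type was therefore not visible in these markers. The summed level of 12 macrophage and dendritic cell markers was 194 to 218 FPKM in the controls and 327 to 353 FPKM in the shCTCF group. Of these 12, 4 reached a mean of 1 FPKM in the controls and 5 in the shCTCF group. Ptprc, Cd68 and Adgre1 were most abundant and Clec9a was at 0. Csf1r had means of 0.140 FPKM in the controls and 0.0689 FPKM in the shCTCF group. For 12 mast cell and granulocyte markers the sum was 1003 to 1019 FPKM and 946 to 1005 FPKM, and 5 of them reached a mean of 1 FPKM in each group. Kit, Cpa3 and Ctsg were most abundant and Fcer1a, Elane and Prtn3 were at 0. Members of this list moved in opposite directions beneath the sum, since mean Kit went from 575 to 787 FPKM and Hdc from 4.25 to 87.2 FPKM, while Cpa3 went from 281 to 88.0 FPKM and Ctsg from 151 to 2.22 FPKM. For 12 fibroblast markers the sum was 12.3 to 13.0 FPKM and 8.65 to 8.99 FPKM, with Col3a1 and Lum at 0. Of these, 4 reached a mean of 1 FPKM in the controls and 3 in the shCTCF group. The part of these cell types in the results that follow was not tested.

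Most of the class I pathway rose after the knockdown, and the rise was uneven along it. On FPKM, 8 of the 10 genes were higher in the shCTCF group at an adjusted p under 0.05 and 0 were lower. The 2 others were Tap2 and Psmb8. Of all 9976 genes tested, 28.8% were called higher and 44.2% lower, by limma on log2(FPKM + 1) with Benjamini-Hochberg adjustment. At least 2-fold rises were called for 6 of the 10 genes and for 11.3% of all genes. The median log2 fold change of the 10 genes was 1.67 and that of all genes was -0.17. On the deposited counts, 7 of the 10 genes could be tested with edgeR. Of these 5 were higher, against 34.8% of all 7341 genes tested, and 0 were lower, against 34.3% of all genes. Together the 10 genes made up 0.202% to 0.208% of all FPKM in the controls and 1.13% to 1.16% in the shCTCF samples. B2m alone made up 0.0787% to 0.102% in the controls and 0.756% to 0.785% in the shCTCF samples, so most of this rise was B2m.

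**Figure D1:**
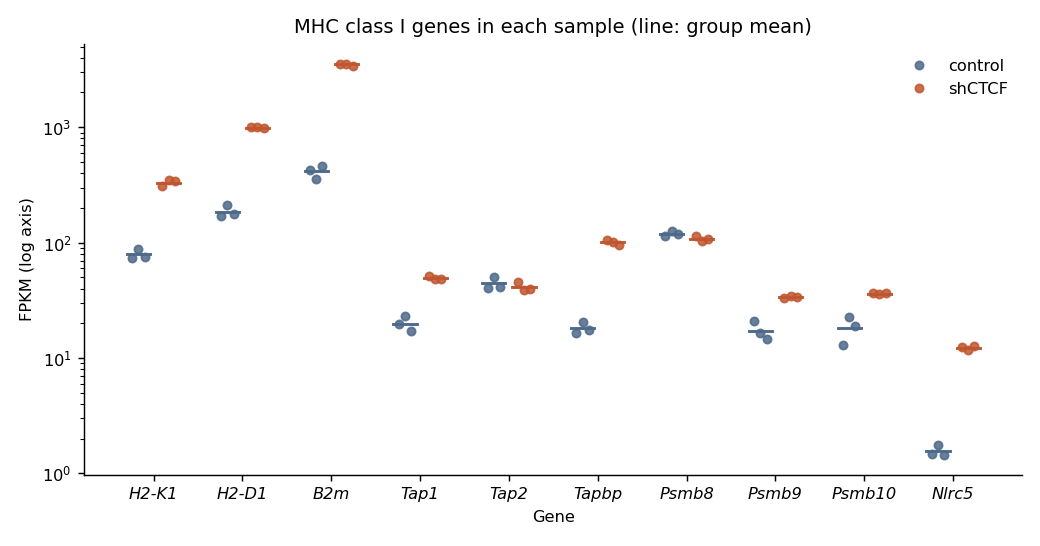
FPKM of the 10 genes (log axis) in each of the 3 control and 3 shCTCF samples, with a line at the group mean. The groups are apart for 8 genes and overlap for Tap2 and Psmb8, and B2m is the highest in both groups, with means of 416 and 3501 FPKM. The share of all genes with groups apart was not counted.

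The heavy chain genes carry the peptide groove. H2-K1 lies on the minus strand at chr17:34132957-34137292 (mm9) and H2-D1 on the plus strand at chr17:35400039-35404442. Their upstream sequences are shown because both genes held an exact match to the kB site GGGGATTCC, the letters of a site bound by NF-kB. The sequences are from the RefSeq promoter table (build GRCm38.p6), in the direction of transcription, with the match in capitals. The H2-K1 stretch is chr17:34000426-34000482 on the minus strand and the H2-D1 stretch is chr17:35262899-35262955 on the plus strand.
H2-K1: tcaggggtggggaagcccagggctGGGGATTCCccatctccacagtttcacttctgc
H2-D1: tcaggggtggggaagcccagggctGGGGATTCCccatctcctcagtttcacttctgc
Counted from 1 at the 5′ end, the stretches differed at 1 of 57 bases (A42T, H2-K1 first). H2-K1 had 2 listed starts, and the match began 111 bases before one and 125 bases before the other. For H2-D1 it began 171 bases before the start. This motif, read on both strands, was present in 0.250% of 32851 promoters. It is 1 exact form of a kB site, and no other form was searched. The 2 matches lie in nearly identical stretches, so they do not count as independent matches beside that share.

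H2-K1 was at 74.1, 88.2 and 75.5 FPKM in control replicates 1, 2 and 3 and at 308, 347 and 339 FPKM in the shCTCF replicates. All shCTCF samples lay above all controls, by 4.18-fold between the means. The log2 fold change was 2.05 ± 0.09 (SE, limma adjusted p = 5.99e-07). H2-D1 was at 169, 210 and 177 FPKM in the controls and at 996, 1002 and 977 FPKM after the knockdown. The groups did not overlap, the means differed 5.35-fold and the log2 fold change was 2.42 ± 0.09 (limma adjusted p = 2.77e-07). Its counts of 1643, 485 and 1816 for the controls, against 8985, 8183 and 10168 after the knockdown, gave a log2 fold change of 2.70 ± 0.07 (edgeR adjusted p = 2.78e-11). Class I genes are close relatives in sequence. Of 1637 windows of 100 bases along the H2-D1 exons, 93 (5.68%) were also found in transcripts of other class I genes elsewhere, and 0 windows of H2-K1 were. Exons of H2-D1 also overlapped LOC547349 and another listed transcript, so its level could take in fragments of relatives. H2-K1 had 0 counts in every sample because its 2 transcripts overlap and shared fragments were not assigned in the count table.

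B2m (beta-2 microglobulin), the light chain without which heavy chains do not reach the cell surface, showed the largest rise of the 10 genes on both tables. The gene lies on the plus strand at chr2:121973423-121978818 (mm9). Its upstream sequence is shown because it was the only 1 of the 8 member promoters found to hold the interferon-stimulated response element core GAAANNGAA (in capitals). Only these letters were searched, so an element with other letters or another spacing would have been missed. Both heavy chain stretches shown above hold tttcacttc, which on the other strand has GAA before GAAA. The search did not count such a form, so a related element in the heavy chain promoters was not tested. The stretch is chr2:122147524-122147580 on the plus strand of GRCm38.p6, from the same RefSeq table.
B2m: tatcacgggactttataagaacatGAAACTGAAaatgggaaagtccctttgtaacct
The match began 139 bases before the start of the gene, and this core, on both strands, was present in 8.56% of all promoters. B2m was at 426, 359 and 462 FPKM in the controls and at 3563, 3516 and 3424 FPKM in the shCTCF samples. The means differed 8.42-fold, and B2m went from rank 145 of all genes by FPKM in the controls to rank 6. The log2 fold change was 3.08 ± 0.09 on FPKM (limma adjusted p = 1.28e-07) and 3.24 ± 0.10 on counts (edgeR adjusted p = 6.57e-11). Counts of B2m were 4382, 922 and 5076 for the controls, against 32684, 29206 and 36354 after the knockdown. Fewer or more cells of a type and less or more RNA per cell cannot be told apart in such bulk samples.

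Relative to the light chain, the heavy chains were lower after the knockdown. Control replicates had ratios of H2-K1 and H2-D1 together to B2m of 0.569, 0.831 and 0.546, compared with 0.366, 0.384 and 0.384 after the knockdown. All shCTCF ratios were below all control ratios, and the log2 ratio fell by 0.75 ± 0.19 (SE). With 3 samples against 3, the exact two-sided permutation test gave p = 0.1, the smallest value it allows, and 0.1 after adjustment over the 5 ratios computed.

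Of the transporter genes, Tap1 rose and Tap2 did not pass the test. Tap1, which forms one side of the channel, was at 19.6, 23.02 and 17.1 FPKM in the controls and at 51.9, 48.5 and 48.9 FPKM in the shCTCF samples. These groups were apart, with a 2.50-fold difference between means and a log2 fold change of 1.29 ± 0.11 (limma adjusted p = 1.91e-05). Tap2, its partner, was at 40.6, 50.6 and 41.6 FPKM in the controls and at 45.5, 38.8 and 39.7 FPKM in the shCTCF samples. The Tap2 groups overlapped. Its log2 fold change was -0.09 ± 0.11 (95% interval -0.34 to 0.15, limma adjusted p = 0.452) on FPKM and 0.05 ± 0.10 (-0.17 to 0.27, edgeR adjusted p = 0.657) on counts. The sign of the Tap2 change turned with the scaling between samples, so no direction is given. Without control replicate 2 the count test placed Tap2 higher by 0.15 (edgeR adjusted p = 0.040), and on FPKM the value was then 0.01. Control replicates had Tap1 to Tap2 ratios of 0.482, 0.455 and 0.410, compared with 1.14, 1.25 and 1.23 after the knockdown. Tap2 was thus the higher of the pair in every control and Tap1 in every shCTCF sample, with a log2 difference of 1.43 ± 0.08 (exact two-sided permutation p = 0.1, 0.1 adjusted).

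Tapbp, on the plus strand at chr17:34056423-34066235 (mm9), rose in every shCTCF sample. It was at 16.4, 20.5 and 17.5 FPKM in the controls and at 106, 101 and 95.5 FPKM in the shCTCF samples. The groups did not overlap, the means differed 5.56-fold, and the log2 fold change was 2.42 ± 0.09 (limma adjusted p = 4.05e-07). Tap1 and Tapbp each had 2 overlapping transcripts and 0 counts in all samples, as H2-K1 did, so their changes rest on FPKM alone.

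Of the immunoproteasome genes, Psmb9 and Psmb10 rose and Psmb8 did not pass the test. Psmb8, the counterpart of Psmb5 with chymotrypsin-like activity, was at 113, 127 and 119 FPKM in the controls and at 114, 103 and 107 FPKM in the shCTCF samples. The groups overlapped. The log2 fold change was -0.15 ± 0.07 (95% interval -0.31 to 0.01, limma adjusted p = 0.0809) on FPKM and 0.04 ± 0.08 (-0.12 to 0.21, edgeR adjusted p = 0.636) on counts, and its sign also turned with the scaling. Psmb9, the counterpart of Psmb6, was at 20.8, 16.6 and 14.6 FPKM in the controls and at 33.1, 34.3 and 33.9 FPKM in the shCTCF samples. All shCTCF values were higher, by 1.95-fold between means, with a log2 fold change of 0.94 ± 0.12 (limma adjusted p = 0.000212). Its counts were 278, 54 and 223 for the controls, against 448, 384 and 486 after the knockdown, with a log2 fold change of 1.19 ± 0.12 (edgeR adjusted p = 3.28e-06). Psmb10, the counterpart of Psmb7, lies apart from the others on the minus strand at chr8:108459628-108462292 (mm9). It was at 13.0, 22.8 and 18.9 FPKM in the controls and at 36.3, 35.8 and 36.5 FPKM in the shCTCF samples. The controls were more scattered than the shCTCF samples but lay below all of them. The means differed 1.99-fold and the log2 fold change was 0.99 ± 0.17 (limma adjusted p = 0.00123) on FPKM and 1.07 ± 0.12 (edgeR adjusted p = 7.26e-06) on counts.

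Of the constitutive subunits that these proteins replace, only Psmb5 was called in the same direction, lower, on both tables. On counts Psmb5 was no longer called without control replicate 3 (-0.34, edgeR adjusted p = 0.063) or without shCTCF replicate 2 (-0.27, edgeR adjusted p = 0.085). Psmb5 was at 54.4, 65.5 and 59.2 FPKM in the controls and at 40.4, 38.7 and 41.9 FPKM in the shCTCF samples, a log2 fold change of -0.55 ± 0.08 (limma adjusted p = 0.000494). Psmb6 was lower by limma (-0.45 ± 0.11, adjusted p = 0.00795) and did not pass on counts (-0.23, edgeR adjusted p = 0.0596). Psmb7 did not pass on FPKM (0.14 ± 0.10, limma adjusted p = 0.236) and was higher on counts (0.36, edgeR adjusted p = 0.00258). With equal medians Psmb6 was not called on FPKM (-0.27) and Psmb7 was (0.32), and by library size only Psmb6 was called on counts (-0.40) and Psmb7 was not (0.19). Without control replicate 1 Psmb6 was called on counts (-0.33). Within each sample, the Psmb8 to Psmb5 ratio was 2.08, 1.94 and 2.01 for the controls, against 2.81, 2.67 and 2.55 after the knockdown. The Psmb9 to Psmb6 ratio was 0.223, 0.129 and 0.139 against 0.420, 0.444 and 0.422. The Psmb10 to Psmb7 ratio was 0.0932, 0.199 and 0.127 against 0.238, 0.238 and 0.262. Every immunoproteasome subunit was thus higher relative to its counterpart in every shCTCF sample than in any control. The log2 differences were 0.41 ± 0.05, 1.43 ± 0.25 and 0.88 ± 0.32 (SE), each with an exact two-sided permutation p of 0.1 (0.1 adjusted). For Psmb8 the higher ratio went with a lower Psmb5 level and no called change of Psmb8 itself.

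**Figure D2:**
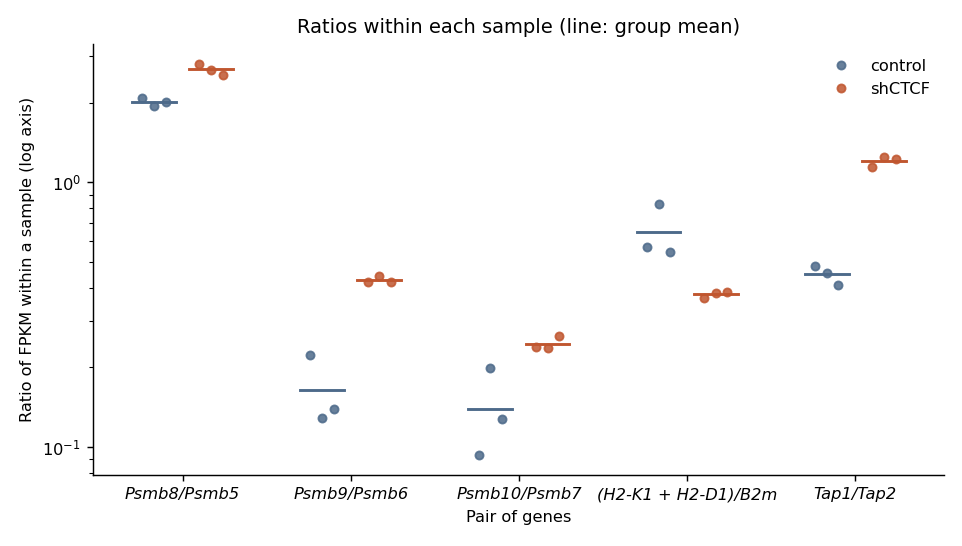
Ratios of FPKM within each sample (log axis) for the 5 pairs of genes, with a line at the group mean. The control and shCTCF ratios are apart for all 5 pairs, and only the ratio of heavy chains to B2m is lower in the shCTCF samples.

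Nlrc5, the transactivator of class I genes, was the lowest of the 10 in both groups. It lies on the plus strand at chr8:96996663-97051172 (mm9). Its level was 1.49, 1.77 and 1.44 FPKM in control cells and 12.4, 11.7 and 12.8 FPKM in the shCTCF samples. The groups were far apart relative to their spread, with a 7.87-fold difference between means, which came second to that of B2m. The log2 fold change was 2.38 ± 0.10 on the log2(FPKM + 1) scale (limma adjusted p = 5.63e-07), which understates the change of so low a gene. On counts of 165, 52 and 170 for the controls, against 1081, 950 and 1327 after the knockdown, it was 3.02 ± 0.10 (edgeR adjusted p = 1.68e-10).

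**Figure D3:**
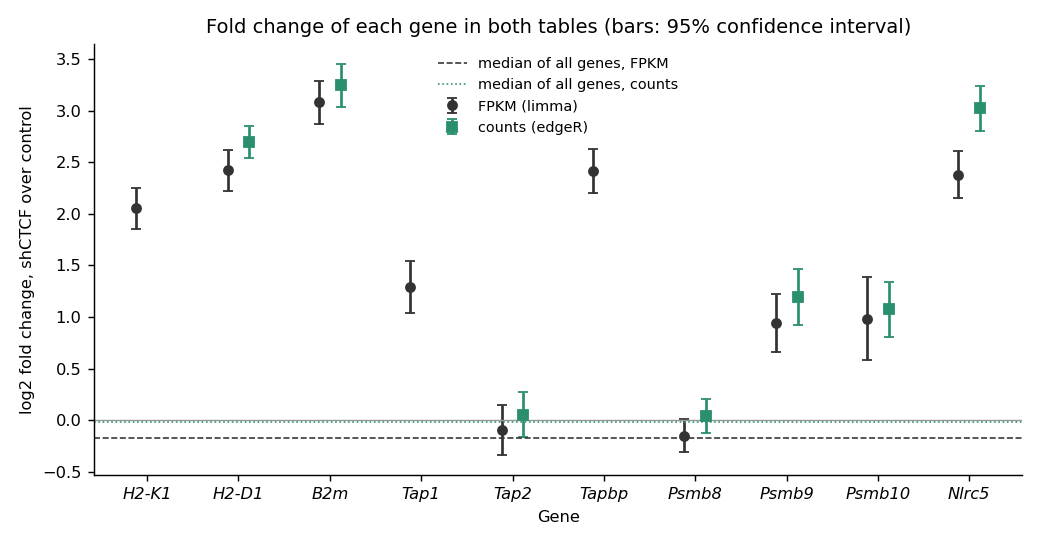
Log2 fold change (shCTCF over control) of the 10 genes on FPKM (circles, limma) and of the 7 genes with counts (squares, edgeR), with 95% confidence intervals and the median of all genes in each table. B2m lies highest in both tables, and the intervals of Tap2 and Psmb8 include 0 in both.

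The order of levels in the controls was B2m, H2-D1, Psmb8, H2-K1, Tap2, Tap1, Psmb10, Tapbp, Psmb9 and Nlrc5, by mean FPKM, which is a level per transcript length. Tap1, Psmb10, Tapbp and Psmb9, with means between 17.3 and 19.9 FPKM, overlapped their neighbours in this order, and the other neighbours did not overlap. In the shCTCF group the order was B2m, H2-D1, H2-K1, Psmb8, Tapbp, Tap1, Tap2, Psmb10, Psmb9 and Nlrc5, and only Psmb8 (mean 108 FPKM) and Tapbp (101 FPKM) overlapped. H2-K1 had thus passed Psmb8, and Tapbp and Tap1 had passed Tap2.

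Of the 10 genes, 7 lie in the MHC region of chromosome 17, and their changes differed within it. Psmb9, Tap1, Psmb8 and Tap2 lie next to each other within 34.2 kb (chr17:34319044-34353266, mm9). Psmb9 on the minus strand and Tap1 on the plus strand, which both rose, start 225 bases apart and face away from each other. The sequence between their starts is shown because it lies upstream of both genes. It is chr17:34324276-34324500, plus strand, read from the mm9 genome, with 61.3% G and C and its 1 match to CCAAT in capitals.
Psmb9-Tap1: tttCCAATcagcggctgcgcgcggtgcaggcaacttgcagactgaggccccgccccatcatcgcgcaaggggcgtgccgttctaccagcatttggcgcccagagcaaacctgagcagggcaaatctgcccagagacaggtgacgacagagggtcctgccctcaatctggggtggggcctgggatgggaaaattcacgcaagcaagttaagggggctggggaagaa
Psmb8 and Tap2, the next genes on the same side as Tap1, were the members without a called change.

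In the stretch from 100 kb before the first to 100 kb after the last of these 7 genes (chr17:33956423-35504442), 110 other genes were listed and 55 could be tested on FPKM. Of the 55, 16 were higher, 28 lower and 11 were not called, with a median log2 fold change of -0.31. Of the 7 class I genes there, 5 were higher and 0 lower. On counts, 15 of 40 other genes were higher and 12 were lower. Over all genes, 28.8% were higher and 44.2% lower on FPKM, and 34.8% were higher and 34.3% lower on counts. The nearest genes tested on FPKM on each side were taken by position, after the values were seen. Beside Tapbp, Zbtb22 and Rgl2 were both lower, with log2 fold changes of -0.57 and -0.57. Beside H2-K1, its relative H2-K2 was higher (0.99) and Ring1, a Polycomb subunit gene, was lower (-0.82). Beside the cluster of Psmb9 to Tap2, the class II loading gene H2-DMa was higher (1.25). On the other side the nearest was Gpsm3, with its midpoint 403 kb from the start of Tap1. Gpsm3 did not pass on FPKM (0.27, limma adjusted p = 0.0607) and was higher on counts (0.47, edgeR adjusted p = 0.00104). Notch4, nearer and tested on counts only, was higher there (1.97, edgeR adjusted p = 0.00676), with means of 0.110 and 0.219 FPKM. Beside H2-D1, Ddx39b was lower (-1.82) and the class I gene H2-Q1 was higher (2.37). Class I relatives are thus among the other genes of this stretch that rose.

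**Figure D4:**
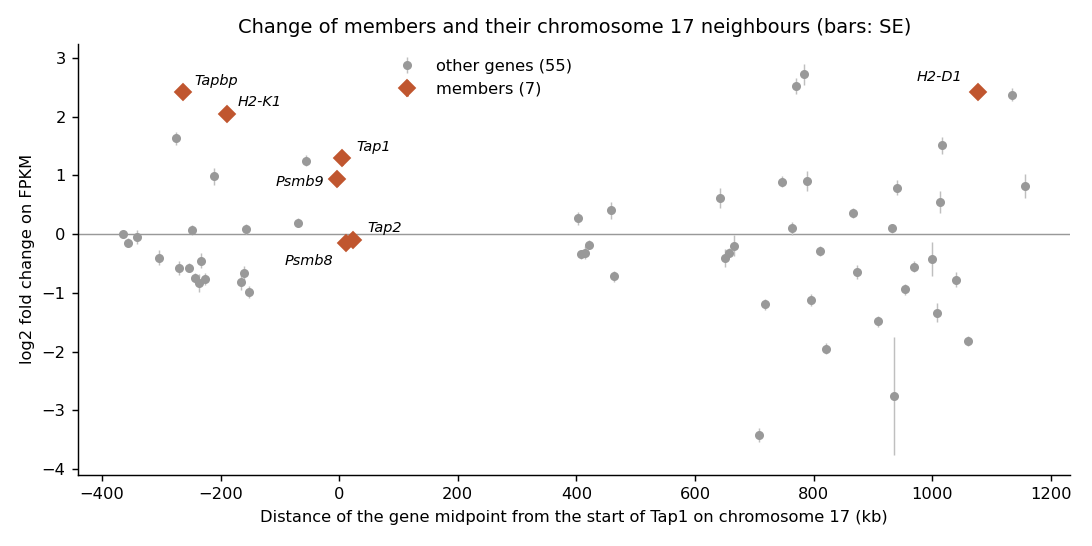
Log2 fold change on FPKM (bars, SE) against distance of the gene midpoint from the start of Tap1, in kb, for 7 members (diamonds) and 55 other tested genes (grey) on chromosome 17. Members lie between -0.15 and 2.42, and 28 of the other genes were called lower.

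Promoters of 8 of the 10 genes were in the RefSeq promoter table (250 bases before to 50 after the start), and Tap2 and Nlrc5 were not matched. Searched on both strands, the CCAAT box (CCAAT) was present for 6 of the 8 (H2-K1, H2-D1, B2m, Tap1, Tapbp and Psmb9), compared with 41.1% of the genes in the table. The matches of Psmb9 and Tap1 are the same letters, those in the shared stretch shown above. The gamma-activated sequence TTCNNNGAA was present for 1, Psmb8, and for 9.55% of the genes. The kB site and the interferon-stimulated core were those shown above. Only those exact letters were searched, so other forms of either, also within the B2m and heavy chain stretches shown, were not counted. A match is a description of the letters and not evidence of binding, and Psmb8, with its match, did not pass the test.

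The related lists that follow can be read against all genes, of which 28.8% were higher and 44.2% lower on FPKM. Other class I and class I-like genes showed both directions. Of 28 such genes in the FPKM table, 12 passed the filter of a mean of 1 FPKM over the 6 samples. Of these 9 were higher, 2 lower and 1 was not called, with a median log2 fold change of 0.87 beside -0.17 for all genes. Among the 9, H2-T10 passed the filter only through the shCTCF group, with means of 0.584 FPKM in the controls and 2.30 FPKM in the shCTCF group. H2-Q4, a Qa-region heavy chain, was at 21.7, 22.2 and 20.4 FPKM in the controls and at 136, 138 and 135 FPKM in the shCTCF samples (log2 fold change 2.62 ± 0.06, limma adjusted p = 4.68e-08). H2-Q1 rose by 2.37 ± 0.11 (limma adjusted p = 8.97e-07), on FPKM alone, since it had 0 counts in every sample. The Qa and classical genes share sequence, and how fragments were divided between them was not tested. H2-T23, which encodes Qa-1 and presents leader peptides of other class I chains to natural killer cell receptors, fell from 34.5, 34.8 and 32.1 FPKM to 8.13, 7.81 and 9.19 FPKM. Its log2 fold change was -1.89 ± 0.08 (limma adjusted p = 8.31e-07) on FPKM and -1.74 (edgeR adjusted p = 1.98e-08) on counts. The other gene that fell was H2-T24 (-1.22 ± 0.13, limma adjusted p = 6.07e-05), named here after its value was seen.

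In the ER folding and trimming list, 7 of 15 tested genes were higher, 2 lower and 6 not called (median 0.09). Tapbpl, a tapasin-related peptide editor, was at 1.48, 0.523 and 0.964 FPKM in the controls and at 14.9, 12.5 and 14.6 FPKM in the shCTCF samples, a log2 fold change of 2.94 ± 0.18 (limma adjusted p = 3.84e-06). Its control mean was 0.989 FPKM, so it passed the filter only through the shCTCF group. Erap1, which trims peptides in the ER, rose by 1.37 ± 0.09 (limma adjusted p = 5.56e-06). Calr (calreticulin), the chaperone of the peptide-loading complex, went from a mean of 787 to 1833 FPKM (1.22 ± 0.07, limma adjusted p = 2.04e-06).

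Among proteasome counterparts and activators, 2 of 9 tested genes were higher, 3 lower and 4 not called (median 0.06). With each sample scaled to the same median the split was 4 higher and 2 lower. The 2 that rose were the subunits of the interferon-inducible proteasome activator. Psme2 rose by 1.59 ± 0.07 (limma adjusted p = 5.63e-07) and Psme1 by 0.77 ± 0.08 (limma adjusted p = 6.29e-05). Psme2 had 0 to 7 counts per sample and was not tested on counts. Of 8 cytosolic peptidases, 6 were lower and 2 higher (median -0.37), and 4 were lower with equal medians or quantile normalization. Thop1, which degrades peptides of the length that class I binds, fell by 1.40 ± 0.10 on the log2 scale (limma adjusted p = 7.26e-06), and Ide (insulin-degrading enzyme) fell by 0.86 ± 0.07 (limma adjusted p = 2.51e-05). Tpp2, which trims long peptides, rose by 0.73 ± 0.22 (limma adjusted p = 0.0177). Its value rests in part on control replicate 2, at 48.3 FPKM against 89.7 and 88.1 FPKM in the other controls. It was 0.44 without that sample (limma adjusted p = 0.000474) and was not called without shCTCF replicate 3 (0.67, limma adjusted p = 0.0631). On counts the split of these peptidases was 3 higher and 3 lower, and Dpp9 was called in opposite directions on the 2 tables (-0.31 on FPKM and 1.02 on counts), as noticed after its values were seen. On FPKM it was not called with equal medians, quantile normalization or without shCTCF replicate 3. Dpp9, Tpp2 and Nrd1 had 2, 2 and 3 listed transcripts, and fragments shared between transcripts were left out of the counts. What remained for them was 11 to 89, 4 to 42 and 6 to 17 counts per sample. The part of this in the split on counts was not tested.

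Of 19 tested regulators of class I transcription, 7 were higher, 6 lower and 6 not called (median -0.01). The 3 with the largest change were interferon pathway factors. Irf7 was at 0.360, 0.615 and 0.654 FPKM in the controls and at 50.9, 49.5 and 47.3 FPKM in the shCTCF samples (log2 fold change 5.03 ± 0.10, limma adjusted p = 2.20e-08). It passed the filter only through the shCTCF group. Irf1 rose from a mean of 6.02 to 79.5 FPKM (3.52 ± 0.10, limma adjusted p = 1.06e-07), and Stat2 from 6.73 to 69.9 FPKM (3.20 ± 0.08, limma adjusted p = 7.28e-08). Irf7 had 0 counts in every sample and Irf1 had 0 to 7, so both rest on FPKM alone. Stat2 was also higher on counts (3.54, edgeR adjusted p = 8.49e-12). The 6 that fell were Rfxap, Nfkb1, Suz12, Nfya, Nfyc and Atf1, with log2 fold changes of -1.59, -1.07, -1.05, -0.95, -0.81 and -0.79, named after their values were seen. Suz12 was not called with the highest transcript alone (-0.82, limma adjusted p = 0.055). Of the 8 tested RFX, NF-Y and CREB/ATF genes of the list, the factors with which Nlrc5 acts, 4 were lower, 1 higher and 3 not called, beside 44.2% lower over all genes.

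Of 13 genes of MHC class II and its loading, 4 passed the filter and all 4 were higher (median 2.88). H2-Oa, with means of 1.33 FPKM in the controls and 0.601 FPKM in the shCTCF group, did not pass the filter. Ctss (cathepsin S) went from a mean of 2.10 to 73.9 FPKM (4.60 ± 0.12) and Cd74 (invariant chain) from 2.87 to 78.1 FPKM (4.34 ± 0.11), both with a limma adjusted p of 7.28e-08. Ctss had 0 counts in every sample and Cd74 had 0 to 11, so neither was tested on counts. Ifi30, a lysosomal thiol reductase, rose by 1.41 ± 0.14 (limma adjusted p = 4.33e-05). The class II chain genes H2-Aa, H2-Ab1, H2-Eb1 and H2-Eb2 had means of at most 0.402 FPKM in both groups and did not pass the filter.

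**Figure D5:**
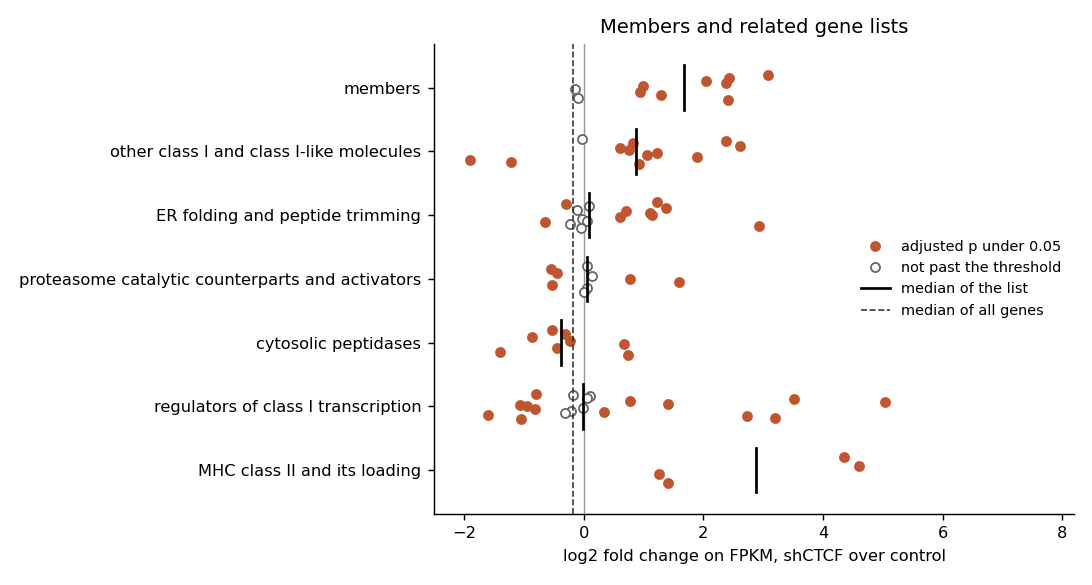
Log2 fold change on FPKM (x axis) of the members and of the tested genes of 6 related lists (y axis), filled where the limma adjusted p was under 0.05, with the median of each list and of all genes. The members have a median of 1.67, the cytosolic peptidases one of -0.37, and the regulators spread from -1.59 to 5.03.

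The genes outside these lists whose profile over the 6 samples was closest to the median profile of the 10 members were Ago4, Adap1, Pea15a, Helz2 and Rnf114. Their root mean square difference from that profile, in log2(FPKM + 1) relative to the controls, was 0.0386, 0.0498, 0.0570, 0.0574 and 0.0574. Ago4 went from a mean of 5.28 to 18.8 FPKM and Rnf114 from 32.0 to 101 FPKM.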

How the data were processed

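RNA-seq was analysed in 3 control and 3 shCTCF samples labelled FGSC, grouped by the labels. Reads of stranded libraries were aligned by the authors to mm9 with HISAT2. The authors made the deposited FPKM values, normalized for depth, with Cufflinks 2.2.1, and the deposited raw counts per RefSeq transcript with featureCounts 1.6.2, without strand, leaving out fragments that overlapped more than 1 transcript. The final line of the FPKM table repeats its titles and was left out. Here both were summed per gene symbol (RefSeq, GRCm38.p6, names only). Transcripts without a symbol held at most 0.603% of counts, and 0 value columns lacked a sample.

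The limma 3.58.1 fit (trend) took log2(FPKM + 1) of genes averaging 1 FPKM or more, and counts were fitted with edgeR 4.0.16 (quasi-likelihood, TMM, filterByExpr, R 4.3.3), two-sided, Benjamini-Hochberg over all genes, threshold 0.05. Ratios used exact permutation tests. Total counts were 1686052 to 7044272, so 3 counts stood for 0.426 to 1.78 CPM (counting error only). Alternatives were other scalings, filters, pseudocounts, transcripts, DESeq2 1.42.0, the replicate block and omission of each sample. Exon ends of 41237 transcripts lay within the mm9 reference and 0 beyond it.

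The members and gene lists were chosen with earlier results of these data known. Genes named were the 10 members, Ctcf, Psmb5, Psmb6 and Psmb7, and in each list the 3 with the largest absolute log2 fold change on FPKM among those called, with groups apart and a mean of at least 1 FPKM in the higher group. The 5 genes of most similar profile were named too. H2-T10, H2-T24, H2-Oa, Dpp9, Nrd1 and the 6 regulators that fell lie outside this rule. So do the genes beside the members on chromosome 17 and single marker genes. All of these were named after their values were seen.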

Additional observations from a re-analysis of the deposited data

How the results depend on the processing

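Of 159 alternative values of the counts of called members, list totals, neighbours and ratios, 157 were labelled the same. For counts this meant staying within 1.5 times the given count, and for ratios keeping the direction. The exceptions were the chromosome 17 neighbours, with 25 higher with a flank of 500 kb and 12 lower in the count table. The members called higher stayed at 8 on FPKM and 5 on counts with the replicate block, and the block changed no call on a member. The replicate numbers did not pair the samples, since the correlation of same-numbered samples was -0.04 to 0.04 on FPKM and -0.01 to 0.03 on counts. With the block, the ratios had an exact p of 0.25, the smallest for 3 pairs.

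Of 241 alternative values for single members, 7 changed sign, all of Tap2 or Psmb8, and the cause was not tested. With each sample scaled to the same median, Tap2 was at 0.0866 and Psmb8 at 0.031 on FPKM. Quantile normalization placed Tap2 at 0.0599. Scaled by library size only, the counts gave Tap2 -0.119 and Psmb8 -0.129. Leaving out 1 sample moved Tap2 between -0.163 and 0.0055 on FPKM and between -0.0194 and 0.152 on counts. The highest values came without control replicate 2, and -0.0194 came without shCTCF replicate 1. Over all alternatives B2m stayed between 2.89 and 3.26 on FPKM, H2-D1 between 2.36 and 2.60, and Psmb10 between 0.77 and 1.16. The median of all genes moved from -0.17 on FPKM to -0.01 with equal medians, and from -0.02 on counts to -0.19 with library size only.

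For single lists 18 of 336 values moved by over 1.5 times. Without shCTCF replicate 3, 1 cytosolic peptidase was higher on FPKM. Without control replicate 1, 1 class II gene was lower. On counts, 2 ER genes and 1 proteasome gene were lower without control replicate 3, 1 proteasome gene was lower without shCTCF replicate 2, and 1 regulator was higher without shCTCF replicate 1. Depth limited the count test most in control replicate 2, where 3 counts stood for 1.78 CPM.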
